A study of Mus musculus with 4 samples.

Results

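The basic helix-loop-helix (bHLH) genes of cortical neurogenesis and the Id genes were examined in mouse hippocampus at postnatal day 2. All probe sets whose only gene symbol was Neurod2, Neurod6, Neurog2, Bhlhe22, Id1, Id2, Id3 or Id4 were taken, whatever their signal. This gave 13 of 45037 probe sets, which represented 7 of the 8 genes. No probe set was matched to Bhlhe22, which was not analysed here. Total RNA from manually dissected hippocampi was hybridised to 4 Affymetrix arrays. Of these, 2 held tissue labelled wildtype (control) and 2 held tissue labelled ZBTB20 knockout, from littermates, and the study asked which genes depend on the zinc finger transcription factor ZBTB20. The labels give no deleted exon, strain or sex, and leave unstated how many animals went into each array and if both arrays of a genotype used different pups. The p-values then rest only on the spread between these arrays, shared across probe sets, and that spread may be technical.

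Proneural bHLH factors such as Neurog2 commit dividing progenitors of the dorsal telencephalon to a glutamatergic neuronal fate. Neurod2 and Neurod6 act later, in postmitotic pyramidal neurons, where they support differentiation and axon growth. These proteins pair with E proteins through the helix-loop-helix domain and bind the E-box, CANNTG, through the basic region next to it. Id proteins carry the helix-loop-helix domain without a basic region, so they capture E proteins in dimers that cannot bind DNA. Id genes are classical targets of bone morphogenetic protein (BMP) signalling and are active in progenitors, glia and blood vessels, while Id2 is also active in some neurons.

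The E-box is the element that one set of these proteins occupies and the other set keeps unoccupied, so the upstream sequences of 3 members are shown with their motifs. RefSeq promoter windows (build GRCm38.p6) were matched for 6 of the 8 genes. Id1 and Bhlhe22 were not matched. The windows below are the 250 bases before the annotated start of Neurod2 (chr11:98329646-98329895, minus strand), Id2 (chr12:25096093-25096342, minus strand) and Id4 (chr13:48260866-48261115, plus strand), written 5′ to 3′ along the gene. Capitals mark the E-box, searched as CANNTG, the CCAAT box, searched on both strands, and the palindrome GGCGCC. BMP-activated Smad proteins bind GC-rich sequences of this kind.
Neurod2: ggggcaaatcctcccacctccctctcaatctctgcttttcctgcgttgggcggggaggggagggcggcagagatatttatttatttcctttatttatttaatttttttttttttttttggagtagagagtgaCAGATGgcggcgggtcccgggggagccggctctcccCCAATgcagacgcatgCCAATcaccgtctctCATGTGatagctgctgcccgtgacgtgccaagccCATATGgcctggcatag
Id2: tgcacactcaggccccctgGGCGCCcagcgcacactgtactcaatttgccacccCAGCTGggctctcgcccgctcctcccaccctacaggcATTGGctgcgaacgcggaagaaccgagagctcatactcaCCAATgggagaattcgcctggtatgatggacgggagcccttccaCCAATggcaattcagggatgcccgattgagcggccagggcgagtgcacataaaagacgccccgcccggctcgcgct
Id4: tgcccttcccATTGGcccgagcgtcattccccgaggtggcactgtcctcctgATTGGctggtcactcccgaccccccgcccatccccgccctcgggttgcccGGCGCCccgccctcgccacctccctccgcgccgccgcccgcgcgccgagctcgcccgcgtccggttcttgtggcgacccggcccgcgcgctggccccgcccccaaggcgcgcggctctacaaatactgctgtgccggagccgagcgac
Neurod2 had 3 E-boxes, at 118, 51 and 17 bases before the start, and the first of them read CAGATG. Id2 had 1 E-box, CAGCTG, 196 bases before the start, and 3 CCAAT boxes. Id4 had 0 E-boxes and 2 CCAAT boxes, and both Id2 and Id4 held 1 GGCGCC. Neurod6 had 2 E-boxes and 1 CCAAT box, and the windows of Neurog2 and Id3 had 0 of any of the 3 motifs. Over 32851 RefSeq windows of the same length, 66.2% held an E-box, 33.8% a CCAAT box and 9.6% a GGCGCC. In these windows 12.21% held 3 or more E-boxes and 2.79% held 3 or more CCAAT boxes. CAGATG, on either strand, was in 14.4% and CAGCTG in 13.0%. No called motif overlapped another. These motifs were chosen with the signals known, and a match describes letters and not an occupied site.

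The arrays lay on different scales, so differences were read within a replicate number. The trimmed mean signal was 497.1 (control) and 497.2 (knockout) for replicate 1, against 157.5 (control) and 155.6 (knockout) for replicate 2. Pair 1 is the replicate 1 array labelled knockout minus the replicate 1 array labelled control, and pair 2 is the same for replicate 2, both as differences of log2(signal + 32.56). The added 32.56 understates differences of dim probe sets. Of 9 probe sets for the targeted gene Zbtb20, 3 had less signal on the array labelled knockout in pair 1, 2 did in pair 2, and 0 did in both. The genotype labels were thus not settled by these signals, and directions follow the labels. Which probe sets lie in the deleted part is not known, and one outside it need not lose signal. Of a list of 10 hippocampal genes, the granule cell determinant Prox1 lay above the array median on all 4 arrays (237.3 and 319.4 on the replicate 1 control and knockout arrays, 226.3 and 238.7 on those of replicate 2). Wnt8b, at 51.9 on the replicate 1 knockout array, and Fibcd1, at 56.2 on the replicate 2 control array, lay below the median there, and genes of cortex, meninges and liver were measured as well, so these signals do not show how pure the dissection was.

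In the test across all 4 arrays no bHLH or Id probe set was called. The filter kept 12 of the 13 probe sets, and limma's test over 27022 kept probe sets called 0 of the 12 at an adjusted p of 0.05 (smallest adjusted p = 1). It called 0% of all kept probe sets. At an unadjusted p under 0.05 it found 0 of the 12, and 0.0185% of all kept probe sets. When the replicate number was a block, limma again called 0 of the 12 (smallest adjusted p = 0.9999) and 0% of all, while 0 of the 12 and 1.22% of all had an unadjusted p under 0.05. The groups overlapped in signal for each of the 12. In only 3.63% of all kept probe sets did both knockout values lie on one side of both control values, so overlap was usual. Each group held an array of each scale, which makes overlap likely.

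Within the pairs the members followed 4 patterns. Neurod6 was the 1 probe set higher on the array labelled knockout in both pairs, as were 24.6% of all kept probe sets. The probe set of Id3 and the 3 of Id4 were lower in both pairs, as were 21.6% of all. Both kept probe sets of Neurod2 and that of Id1 were higher on the knockout array in pair 1 but lower on it in pair 2 (23.3% of all), and Neurog2 and all 3 probe sets of Id2 had the reverse order (30.5% of all). Probe sets of 1 gene took the same pattern in each case, but they measure the same transcripts and are not replicates. The median of the 8 kept Id probe sets was -0.29 in pair 1 and -0.35 in pair 2, and that of the 4 kept bHLH probe sets was 0.14 and 0.06, beside -0.02 and 0.02 over all kept probe sets. Each such value compares a single array with another and has no replicate check.

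**Figure D1:**
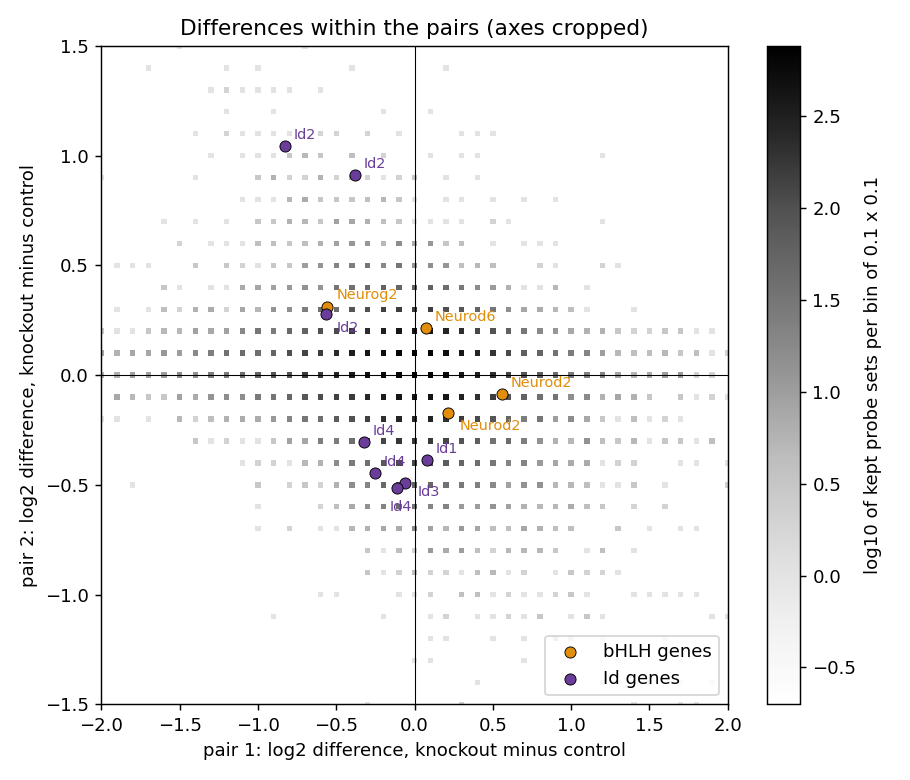
Difference in pair 1 (horizontal axis) against that in pair 2 (vertical axis), as log2 knockout minus control, for the 12 kept bHLH (orange) and Id (purple) probe sets over bins of all 27022 kept probe sets (grey, darker for more); the axes are cropped. The 3 Id2 points lie in the upper left quadrant, the Id3 and Id4 points in the lower left, and Neurod6 alone in the upper right.

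Neurog2, the proneural factor of dorsal progenitors, had a modest signal at its 1 probe set (1422839_at). Signals on the control and knockout arrays were 289.7 and 186.4 in replicate 1, and 132.7 and 172.6 in replicate 2. The control array was the higher one in replicate 1 and the lower one in replicate 2. The log2 difference was -0.56 in pair 1 and 0.31 in pair 2, and 16.6% and 13.5% of all kept probe sets were at least as far apart in these pairs. Across both pairs limma gave -0.12 ± 1.08 (SE, n = 2 per group), or ± 0.25 with the block. Here and below, an SE without the block was drawn from probe sets of like mean signal, not from the probe set itself. With the block the SE also leaned on other probe sets, with 5.98 prior degrees of freedom beside 1 residual degree. The Neurog2 signals were all above the median of their array. That median was 142.3 and 129.9 on the replicate 1 control and knockout arrays and 73.8 and 75.8 on those of replicate 2.

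Neurod6, a marker of postmitotic pyramidal neurons, was bright on all 4 arrays and differed little. At 1418047_at the control and knockout arrays had 6997 and 7349 in replicate 1, and 1498 and 1745 in replicate 2. The knockout array was the higher one each time, with log2 differences of 0.07 in pair 1 and 0.22 in pair 2. In these pairs 83% and 25.4% of all kept probe sets were at least as far apart. Limma gave 0.14 ± 1.90 (SE, n = 2 per group), or ± 0.16 with the block.

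Neurod2, which acts in the same maturing neurons, was represented by 3 probe sets. The brightest one, 1435411_at, had control and knockout signals of 3160 and 3674 in replicate 1, and of 2870 and 2538 in replicate 2. The knockout signals lay outside the control signals on both sides, 1 above and 1 below. At 1418995_at the signals were 1433 and 2126 in replicate 1, and 288.8 and 270.1 in replicate 2. At 1418995_at, too, the knockout array was the higher one in replicate 1 and the lower one in replicate 2. The differences were 0.22 in pair 1 and -0.18 in pair 2 at 1435411_at, and 0.56 and -0.09 at 1418995_at. In pair 1, 16.6% of all kept probe sets were at least as far apart as 1418995_at, and 61.4% were in pair 2. The third probe set, 1444362_at, did not pass the filter, with 34.9 and 46.7 in replicate 1 and 56.9 and 53.2 in replicate 2, below the array median throughout.

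**Figure D2:**
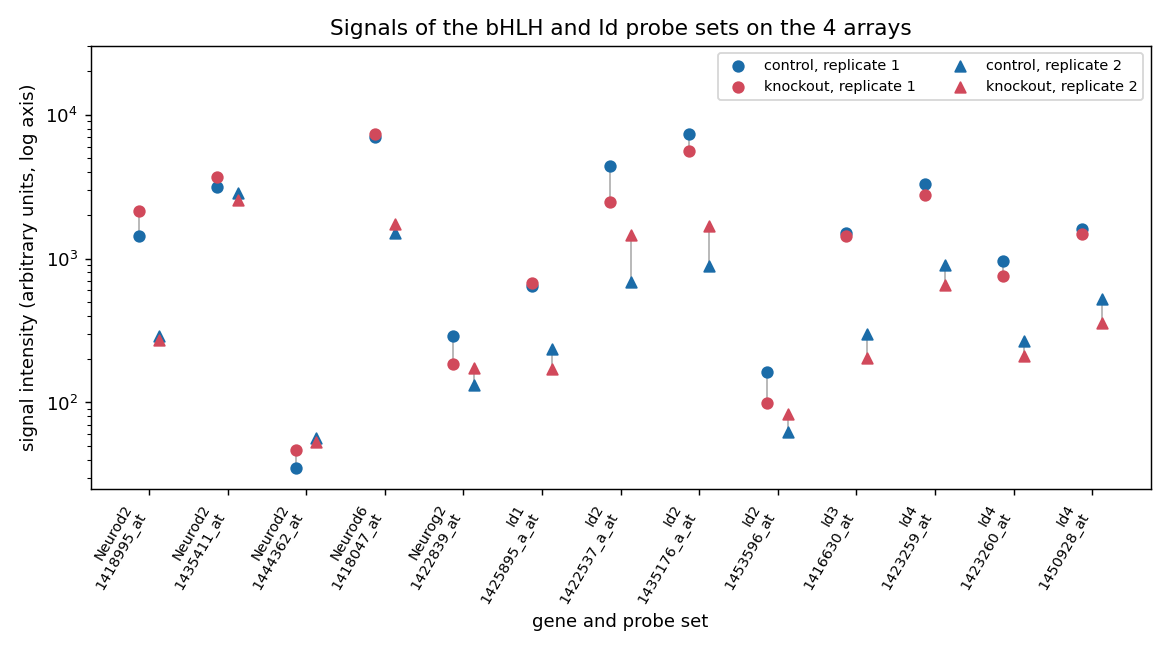
Signal intensity (log axis, arbitrary units) of the 13 bHLH and Id probe sets on each array, with circles for replicate 1, triangles for replicate 2, blue for control and red for knockout; grey lines join the arrays of a pair. The 3 Id2 probe sets have the control array on top in replicate 1 and the knockout array on top in replicate 2, while the Id4 probe sets have the control array on top in both.

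Id2 had the widest differences of the group, and they ran in opposite directions in the pairs. At its brightest probe set, 1435176_a_at, control and knockout arrays had 7323 and 5616 in replicate 1, and 885.6 and 1695 in replicate 2. At 1422537_a_at they were 4426 and 2478 in replicate 1, and 690.8 and 1460 in replicate 2. The control array was the higher one in replicate 1 and the lower one in replicate 2 for both. The dimmer 1453596_at showed the same order, with 162 and 99 in replicate 1 and 62.8 and 83 in replicate 2.

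The Id2 differences were -0.83 in pair 1 and 1.05 in pair 2 at 1422537_a_at, -0.38 and 0.91 at 1435176_a_at, and -0.56 and 0.28 at 1453596_at. The pair 2 value of 1422537_a_at was the only one of the 12 over 2-fold, a distance reached by 0.518% of all kept probe sets in pair 2 and, in the higher direction, by 0.248%, and 0 of the 12 were over 2-fold in pair 1, against 4.37% of all. It became 2 of the 12 in pair 2 with quantile normalization. Limma gave 0.27 ± 1.88 (SE, n = 2 per group) at 1435176_a_at, or ± 0.29 with the block. The Id2 window shown above held a GGCGCC and an E-box, which were in 9.6% and 66.2% of all windows, and Id4 also held a GGCGCC. The part of these motifs in the Id2 signals was not tested.

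Markers of cortical layers and of liver are given beside Id2, since they too differed within the pairs. Whether the layer genes were also active in the hippocampus itself was not tested. Of 6 measured markers of cortical layers, 3 had the same order of signs as Id2, an order that 30.5% of all kept probe sets had. These were Tle4 at -0.88 and 0.93, Fezf2 at -0.58 and 0.81, and Tbr1 at -0.01 and 0.89, the last with almost no difference in pair 1. The other markers were Bcl11b at 0.30 and 0.19, Cux2 at 0.08 and -0.26, and Rorb at -0.13 and -0.06. The summed signal of the 6 was 12809 and 3068 on the control arrays of replicates 1 and 2, and 10988 and 4110 on the knockout arrays, and the lowest single signal was 64.7. Of 6 measured liver markers, 5 were over 2-fold lower on the knockout array in pair 1, including albumin (Alb), at 39309 and 15195, against 42.2 and 45.2 in replicate 2. The sixth, Ttr, is also a choroid plexus gene and is given with that list. The summed signal of the 5 others was 53228 and 243.3 on the control arrays of replicates 1 and 2 and 18375 and 252.4 on the knockout arrays, with a lowest signal of 22.9. The part of either in the Id2 values was not tested. In tissue samples, fewer cells of a type and less RNA per cell cannot be told apart.

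Genes of like pattern were sought for the brightest kept probe set of Id2, 1435176_a_at. The genes whose 4 log2 values lay nearest to it, after each gene's mean was subtracted, were Dpy19l3, Tmem108 and Ldb2. Their Euclidean distances were 0.16, 0.16 and 0.17. Ldb2, which encodes a LIM domain binding cofactor, had 3274 and 2533 in replicate 1 and 438 and 836.3 in replicate 2. Only 6 of 12581 genes lay within a distance of 0.25 of Id2. For Neurog2 the nearest were Scd3, Lrch2 and Cbln2, at 0.099, 0.10 and 0.11, and 119 genes lay within 0.25. The distance includes each gene's difference between the replicate numbers as well as that between knockout and control. The likeness rests on 4 arrays and describes them only.

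Id4, which is active in neural stem cells and astrocytes, had the lower signal on the array labelled knockout at each of its 3 probe sets in each pair. At 1423259_at the control and knockout arrays had 3282 and 2748 in replicate 1, and 906.5 and 656.8 in replicate 2. At 1450928_at they had 1614 and 1492, and 523.3 and 356.5. At 1423260_at they had 955.3 and 755.9, and 267.7 and 210.1. All 3 probe sets were designed from the same transcript record, so they repeat a measurement.

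The Id4 differences were -0.25 in pair 1 and -0.45 in pair 2 at 1423259_at, -0.33 and -0.31 at 1423260_at, and -0.11 and -0.51 at 1450928_at. Of all kept probe sets, 46.9% in pair 1 and 5.92% in pair 2 were at least as far apart as 1423259_at. Limma gave -0.35 ± 1.77 (SE, n = 2 per group) there and, with the block, ± 0.16 with an unadjusted p of 0.0713, the smallest of the 12, and an adjusted p of 0.9999.

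Id3 and Id1, which are active in blood vessels and in progenitors, were lower on the array labelled knockout in pair 2 and differed little in pair 1. At the Id3 probe set 1416630_at the signals were 1502 and 1440 in replicate 1, and 298.2 and 202.5 in replicate 2. At the Id1 probe set 1425895_a_at they were 640.2 and 677.6 in replicate 1, and 235.2 and 172.1 in replicate 2. The control array was the higher one in both replicates for Id3, and in replicate 2 alone for Id1. The differences were -0.06 and -0.49 for Id3, and 0.08 and -0.39 for Id1, in pairs 1 and 2. In pair 1, 85.7% and 81.3% of all kept probe sets were at least as far apart as Id3 and Id1, and in pair 2, 4.56% and 8.43% were. With the block limma gave -0.28 ± 0.18 (SE, n = 2 per group) for Id3 and -0.15 ± 0.19 for Id1.

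Markers of the cells in which Id1, Id3 and Id4 are active are given beside these values. For comparison, 21.6% of all kept probe sets were lower in both pairs and 24.6% were higher in both. Another 30.5% were lower in pair 1 alone and 23.3% in pair 2 alone. The medians over all kept probe sets were -0.02 in pair 1 and 0.02 in pair 2. Of 8 measured genes of radial glia and astrocytes, 6 were lower in pair 2 and 5 in pair 1, with medians of -0.09 in pair 1 and -0.21 in pair 2. Their summed signal was 52393 and 16127 on the control arrays of replicates 1 and 2 and 50089 and 15540 on the knockout arrays, and the lowest single signal was 121.5. The widest apart of the 8 was Aqp4, at 1.46 in pair 1 and -1.42 in pair 2. Of 9 measured endothelial and pericyte genes, 5 were lower in pair 2 and 6 in pair 1, with medians of -0.31 and -0.0021. Their summed signal was 4673 and 1581 on the control arrays and 5387 and 1441 on the knockout arrays, with a lowest signal of 32.3 for Tie1. Other cell types were measured as well. Of 7 neuron genes, 2 were lower in pair 1 and 4 in pair 2, with medians of 0.19 and -0.04. The summed neuron signal was 80820 and 21017 on the control arrays and 87820 and 22173 on the knockout arrays, with a lowest signal of 51.9. All 7 interneuron genes were lower in pair 2 and 6 of them were higher in pair 1 (medians 0.26 and -0.68), with a summed signal of 9194 and 3847 on the control arrays and 11268 and 2230 on the knockout arrays, and a lowest signal of 127.1. Of 6 meningeal genes 5 were lower in pair 1 and 3 in pair 2 (medians -0.82 and -0.05), with sums of 5408 and 722.6 on the control and 2202 and 1233 on the knockout arrays, and a lowest signal of 30.7. Of 7 choroid plexus genes 5 were higher in both pairs (medians 0.44 and 0.43), with sums of 63870 and 4017 on the control and 76141 and 9827 on the knockout arrays, and a lowest signal of 32.9. Most of the choroid plexus sum was Ttr, at 62551 and 74106 in replicate 1 and 3505 and 9232 in replicate 2. The part of any of these cells in the bHLH and Id values was not tested.

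The genes that act with these factors were measured by lists, and limma called 0 genes of any list, with or without the block. The shares and medians over all kept probe sets given with the cell markers also stand beside these lists. The E proteins are the shared partners that Id proteins capture. All 3 were kept, with medians of 0.01 in pair 1 and 0.08 in pair 2. Tcf4 had 19569 and 20201 in replicate 1 and 2853 and 3010 in replicate 2, a difference of 0.05 and 0.08. Tcf3 differed by 0.01 and 0.09, and Tcf12 by -0.15 and 0.03. No E protein gene was farther apart than 0.15 in either pair.

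Of 11 other neurogenic bHLH genes, 5 were kept, all higher on the knockout array in pair 1 and 3 of them lower in pair 2. Neurod1, which acts in dentate granule neurons, had 3180 and 3807 in replicate 1 and 2005 and 1484 in replicate 2, a difference of 0.26 and -0.43. Neurod4 differed by 1.07 and 0.06, on replicate 1 signals of 30.1 and 98.8, from a probe set that may also bind related transcripts. Nhlh2, a gene of newborn neurons, differed by 0.40 and -0.15, and Atoh7 by 0.30 and -0.02. The Atoh7 probe set may also bind related transcripts, and its replicate 1 signals, 85.8 and 113, lay below the array medians. Olig1 and Olig2, which direct the oligodendrocyte lineage, differed by -0.03 and -0.01, and by 0.08 and 0.02.

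Of 6 Hes and Hey genes, which encode bHLH repressors most of which act downstream of Notch, 4 were lower in pair 1 and 5 in pair 2, with medians of -0.32 and -0.07. Hes1, a repressor that keeps progenitors dividing, had 324.8 and 173.6 in replicate 1 and 84.8 and 76.8 in replicate 2, a difference of -0.79 and -0.10. Hes5 differed by -0.27 and -0.46, at a probe set that may also bind related transcripts. Heyl differed by -0.79 and 0.09 and lay below the median on every array. Hey2 differed by 0.52 and -0.12 and lay below the median on all but the replicate 1 knockout array.

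Among 9 genes downstream of or acting with the neurogenic factors, Rnd2 was the farthest apart. Rnd2, a small GTPase that Neurog2 induces in migrating neurons, had 878.5 and 2393 in replicate 1 and 596.5 and 185.8 in replicate 2. Its difference was 1.41 in pair 1 and -1.53 in pair 2, opposite in direction to Neurog2 in both pairs. Eomes, the marker of intermediate progenitors, differed by 0.34 and -0.03, and the corepressor gene Cbfa2t3 by 0.30 and -0.05. Tbr1 is given above with the cortical markers. The list's medians were 0.04 and -0.03.

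Of 20 BMP pathway genes, 14 were kept, with 7 lower in each pair and medians of 0.02 and 0.02. The receptor gene Bmpr1b had 140.6 and 349.4 in replicate 1 and 62.4 and 55.4 in replicate 2, a difference of 1.14 and -0.11. The receptor gene Acvr1 differed by 0.88 and -0.13, the ligand gene Bmp6 by 0.41 and -0.13, and the ligand gene Bmp7 by -0.47 and 0.13. With the constant added to each signal, 3 genes of the pathway lists were over 2-fold apart in pair 1, Neurod4, Bmpr1b and Rnd2. In pair 2 only Rnd2 was. On that scale 4.37% of all kept probe sets were over 2-fold apart in pair 1 and 0.518% in pair 2. By signal without the constant, Heyl also passed 2-fold in pair 1, at 126.3 (control) and 59.1 (knockout). Tbr1 then just passed it in pair 2, at 183.01 (control) and 366.05 (knockout).

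**Figure D3:**
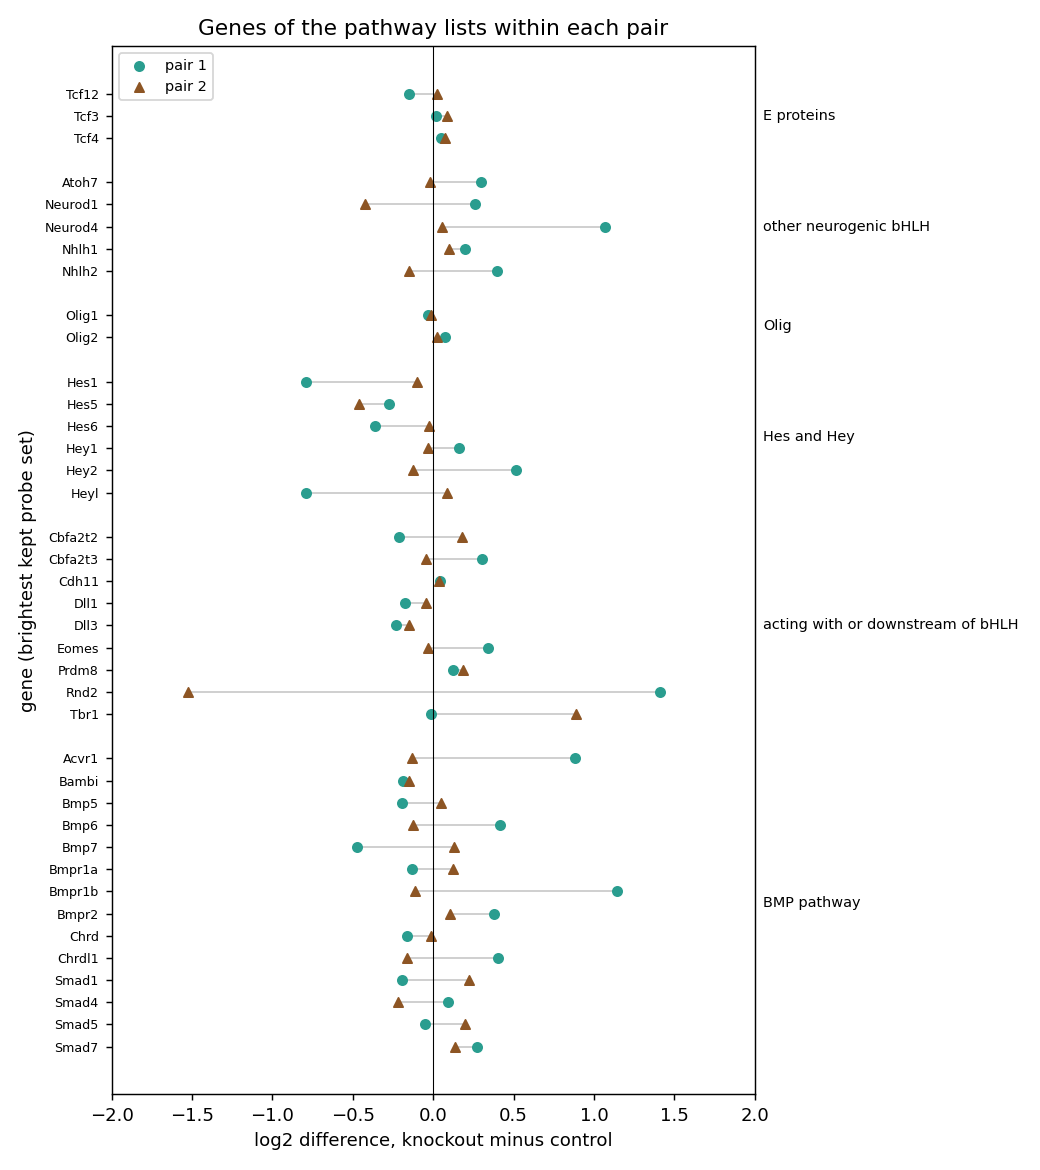
Difference within pair 1 (circles) and pair 2 (triangles), as log2 knockout minus control, for each kept gene of the 6 pathway lists at its brightest probe set; grey lines join the values of a gene. The E protein and Olig genes lie near 0 in both pairs, and Rnd2 reaches 1.41 in pair 1 and -1.53 in pair 2.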

How the data were processed

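The authors deposited linear signal intensities of 4 arrays, which MAS5 produced according to the submitters' processing notes, with no version or scaling given in the sources used here. Probe sets were named from the platform annotation (34945 with 1 symbol, 932 with several, 9160 with none). Values were turned into log2(signal + 32.56), the 20th percentile of all values, and the 27022 probe sets whose mean exceeded the 40th percentile were retained. Each was tested with limma 3.58.1 in R 4.3.3 (lmFit, eBayes with trend, Benjamini-Hochberg, threshold 0.05). A check on simulated data required only that the mean estimated difference lay near the planted one, and set no requirement on the calls. A gene on a list is its brightest kept probe set (12581 genes). The number of arrays limits the precision.

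Same-numbered arrays deviated together from their group means (correlation 0.837 across probe sets). They also shared their rank order, with Spearman correlations of 0.957 and 0.975 within a replicate number against 0.77 to 0.793 between numbers, which a difference of scale alone does not change. So a blocked fit and within-pair values are given beside the fit as designed. Its residual degrees of freedom were 2, and 1 with the block. Its prior degrees of freedom, which weigh the spread shared across probe sets, were infinite, and 5.98 with the block. The spread without the block includes all differences between the replicate numbers. Members and lists were chosen with earlier results of these data known. List genes were named as the up to 4 widest apart within a pair. Genes of like pattern were the 3 nearest to the widest bHLH and Id gene, each gene taken at its brightest kept probe set. By that rule these were Neurog2 and Id2, although 1418995_at of Neurod2 was as wide as Neurog2 in pair 1. Alternatives were quantile, 75th percentile and trimmed mean scaling, 2 pseudocount choices, other filters, one probe set per gene, eBayes variants, the block and leaving out each array.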

Additional observations from a re-analysis of the deposited data

How the results depend on the processing

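Limma called 0 probe sets, and 0 of the bHLH and Id probe sets, under every alternative run, including the replicate block and the removal of any 1 array (range 0 to 0). With quantile normalization 2 in place of 1 of the 12 were over 2-fold apart in pair 2, and limma's difference turned sign for Neurog2 (-0.12 to 0.0084) and for Id2 at 1453596_at (-0.14 to 0.047). The cause was not tested. No within-pair difference of a member changed sign under the 5 scaling and pseudocount alternatives. Without 1 array, limma's difference took both signs for every kept member. These fits had no block, so a group with a single array was set against a group with both replicate numbers. The difference then included the offset between the replicate scales, and other parts were not tested. Limma's difference was positive for every kept member without the replicate 1 control array, and negative without the replicate 2 control array. It ranged from -1.18 to 1.66 (1418995_at) and -0.24 to 0.28 (1435411_at) for Neurod2, -0.96 to 1.24 for Neurod6, -0.61 to 0.36 for Neurog2, -1.05 to 0.75 for Id1, -1.20 to 1.42 (1422537_a_at), -1.24 to 1.77 (1435176_a_at) and -0.66 to 0.37 (1453596_at) for Id2, -1.59 to 1.05 for Id3, and -1.35 to 0.66 (1423259_at), -1.18 to 0.54 (1423260_at) and -1.29 to 0.67 (1450928_at) for Id4. With 2 arrays per group on 2 scales, a small shared difference could not be told from the spread, and the 0 calls do not show that the groups are alike.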
